A study of Arabidopsis thaliana with 12 samples.

Results

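The transcripts that changed on loss of CURLY LEAF (CLF) alone were followed in whole Arabidopsis thaliana seedlings 14 days old. The clf-29 seedlings (3 arrays), which carry a T-DNA insertion in CLF in the Columbia background and have wild-type BRM, were set against wild-type Col seedlings (3 arrays). These 6 of the 12 arrays of the series were chosen by their genotype labels, and the other 6 came from brm-1 seedlings (3 arrays), with an insertion in the chromatin remodeler gene BRM, and from the double mutant brm-1 clf-29 (3 arrays). All plants grew in long days, and every sample was RNA of the whole seedling, so that fewer cells of a type and less RNA per cell cannot be told apart. The mutant is 1 T-DNA line, and each genotype is represented by 3 samples that the study's methods call biological replicates.

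CLF is a catalytic subunit of Polycomb Repressive Complex 2, which places methyl groups on lysine 27 of histone H3 (H3K27me3). The mark is found over genes that are held silent in a given tissue, among them floral regulators in leaves. A second methyltransferase, SWN, works beside CLF in vegetative tissue, and plants that lack CLF alone are known for curled leaves and early flowering.

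Values are log2 signals of Affymetrix ATH1 arrays, for 1 probe set a gene. A change is the mean of clf-29 minus the mean of Col on this scale, so 1 is a doubling, and its error is the standard error of the limma fit over all 12 arrays. A gene was called where the adjusted p (limma, Benjamini-Hochberg over all 13356 genes) was under 0.05. Signals under 4.71, the 95th percentile of 27 bacterial control probe sets, were taken as background, and a gene with all 3 arrays of 1 genotype under it has only a minimum fold. Depth does not apply to arrays, and their number limits the precision. Array medians over these genes lay between 7.15 and 7.16 in clf-29 and between 7.15 and 7.215 in Col. On the first principal component of the brighter genes, the 4 arrays numbered 3 lay away from the other 8, at -22.25 to -12.16 against -5.76 to 21.44, and same-numbered clf-29 and Col arrays deviated together. Calls are therefore given from the plain fit and, beside it, from a fit with a term for replicate 3. The probe sets of CLF itself carried no gene name here, so the clf-29 label was not checked against its own gene.

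Without CLF, 73 genes were higher (0.547% of the genes tested) and 53 were lower (0.397%) than in Col. With the term for replicate 3 these counts were 303 higher (2.27%) and 283 lower (2.12%), and all 126 genes of the plain fit were among them. With the 3 replicate numbers as a block, 243 were higher and 222 lower. The plain fit called 48, 44 and 173 genes without clf-29 replicate 1, 2 and 3, and 44, 46 and 83 without Col replicate 1, 2 and 3. Every one of the 126 genes had the same sign in all 3 same-numbered pairs of arrays, as did 4993 of the 13356 genes tested. None of the 126 overlapped between genotypes, as was true of 18.0% of all genes. The calls were made from these same arrays, so neither count is separate support for them.

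Most of the genes that rose already had signal in wild-type seedlings. Of the 73, 6 lay under the background percentile on all 3 Col arrays (AT1G03710, AT5G11360, WSD1, chr31, UFO and UGT84A1), and the median of the 73 was 9.16 in clf-29 and 7.85 in Col. Among all genes 26.6% had a Col mean under the percentile, compared with 8.22% of the 73. The dim genes were also the least precise, with a median standard error of 0.98 where both means were under the percentile and 0.21 elsewhere. None of the 3185 genes under the percentile in both genotypes was called. The genes that fell were bright in Col, with a median of 8.10 in clf-29 and 9.55 in Col. Of the 53, 1 (AT1G33950) was under the percentile on all 3 clf-29 arrays.

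Named one by one were the 15 largest rises and the 15 largest falls among called genes whose arrays did not overlap and whose brighter genotype averaged over 7.13, the median level. The largest rises, of AT1G03710 and AT5G11360, were in loci at background in Col. AT1G03710 read 8.19, 8.58 and 7.89 in clf-29, against 3.06, 1.13 and 1.86 in Col, a rise of at least 11.4-fold (adjusted p = 0.00318, limma). AT5G11360 read 6.91, 7.49 and 8.81 in clf-29, against 2.53, 2.35 and 2.19 in Col, a rise of at least 8.15-fold (adjusted p = 0.00084, limma). Every clf-29 array of both genes was above background and every Col array below it. The annotation used here gives neither locus a name or a role.

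The next 2 of the 15 rises were in genes of known function. SWEET10 (AT5G50790), a sugar exporter of the plasma membrane that is known to be switched on at the floral transition, read 9.07, 9.23 and 10.49 in clf-29, against 5.50, 6.10 and 6.77 in Col (change 3.47 ± 0.58, adjusted p = 0.0142, limma). WSD1 (AT5G37300), a wax ester synthase of the stem surface, read 7.97, 7.66 and 5.78 in clf-29, against 3.24, 4.36 and 3.70 in Col, a rise of at least 5.38-fold (adjusted p = 0.00989, limma). In neither gene did the genotypes overlap. Replicate 3 was the highest clf-29 array for SWEET10 and the lowest for WSD1. Each call was lost in the plain fit when clf-29 replicate 2 or Col replicate 1 was left out, that of SWEET10 also without Col replicate 2 and that of WSD1 without clf-29 replicate 1.

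ALC (AT5G67110, ALCATRAZ), a bHLH factor that forms the separation layer of the fruit valve margin, averaged 8.65 ± 0.34 in clf-29 and 6.61 ± 0.06 in Col (SD, n = 3 each). Its change was 2.04 ± 0.27 (adjusted p = 0.00318, limma). AT2G41480, which RefSeq lists as peroxidase 25 (PRX25), an enzyme of the class that oxidises cell wall phenolics, had the smallest standard error of the 15 largest rises, with 7.95, 7.95 and 7.97 in clf-29 and 6.15, 6.04 and 5.95 in Col. It rose by 1.91 ± 0.13 (adjusted p = 3.07e-05, limma). SCPL43, a serine carboxypeptidase-like gene, averaged 7.14 ± 0.13 in clf-29 and 5.39 ± 0.47 in Col and rose by 1.75 ± 0.32. The plain call of SCPL43 was lost without replicate 1 or 2 of either genotype. The other 8 of the 15 largest rises are loci without a name, with changes between 1.80 (AT5G22460) and 3.33 (AT1G09500, a plain call lost without any 1 array but clf-29 replicate 3). Among them AT3G28500 had the lowest adjusted p, with 9.96, 9.91 and 9.75 in clf-29 and 6.91, 7.10 and 7.82 in Col (change 2.60 ± 0.20, adjusted p = 9.23e-05, limma).

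**Figure D1:**
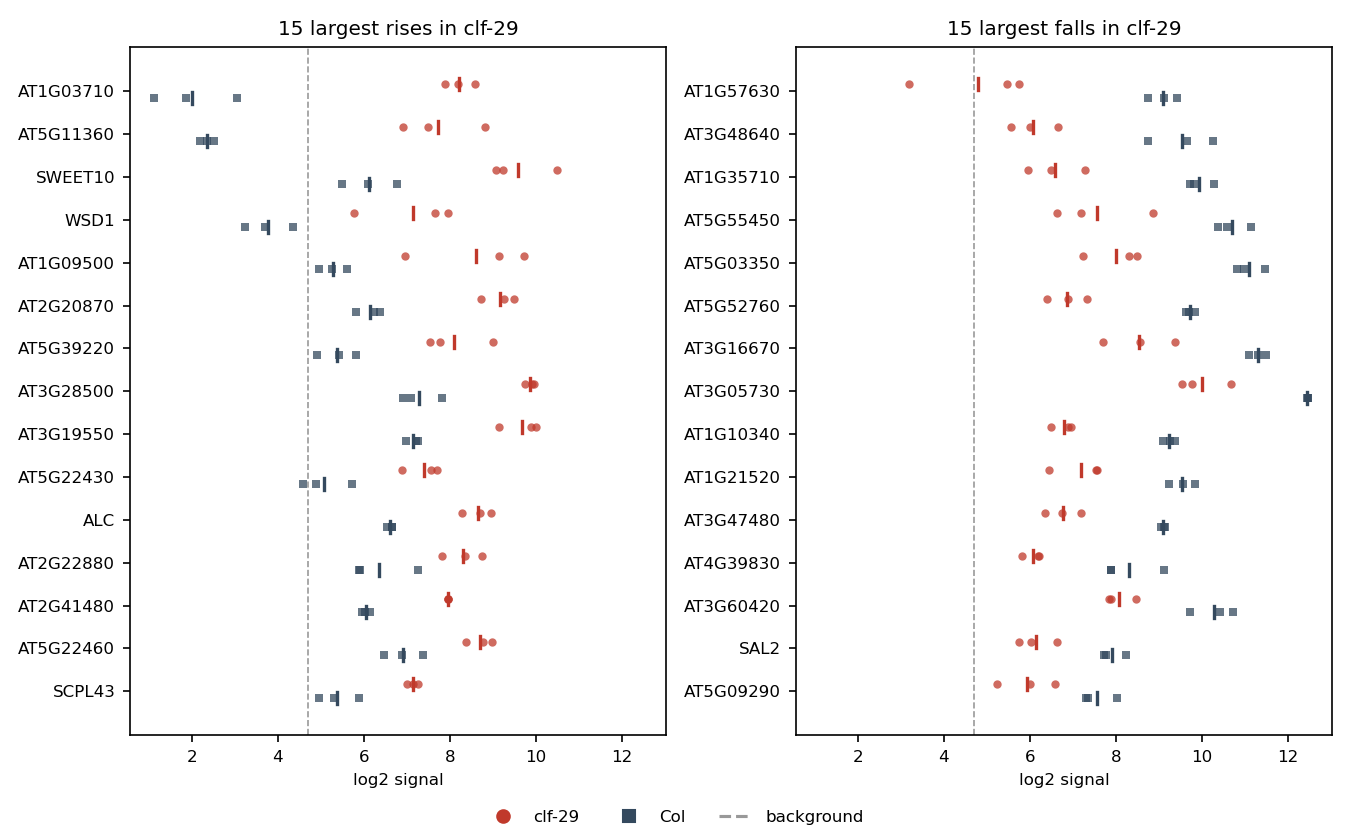
Log2 signal (x axis) of the 15 largest rises (left) and 15 largest falls (right) among called genes that did not overlap between genotypes and were above the median level in the brighter one. Each circle is a clf-29 array and each square a Col array (3 each), vertical bars are means, and the dashed line is the background percentile at 4.71. The clf-29 circles lie to the right of the Col squares for every rise and to the left for every fall, and 3 of the rises have all Col squares under background.

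The largest falls were in genes with strong signals in wild type. AT1G57630 read 5.74, 5.46 and 3.19 in clf-29, against 9.11, 9.42 and 8.76 in Col (change -4.30 ± 0.87, adjusted p = 0.0398, limma). AT3G48640 read 6.0, 6.65 and 5.56 in clf-29, against 9.65, 10.25 and 8.75 in Col (change -3.48 ± 0.37, adjusted p = 0.000851, limma). AT3G05730, the brightest of the 15 in Col, read 10.68, 9.77 and 9.53 in clf-29, against 12.45, 12.46 and 12.46 in Col (change -2.46 ± 0.22, adjusted p = 0.000272, limma). The Col arrays of this locus were nearly identical, and all 3 clf-29 arrays lay well below them.

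SAL2 (AT5G64000), which belongs to the bisphosphate nucleotidase family, is the 1 gene with a symbol among the 15 largest falls. It read 6.04, 5.76 and 6.64 in clf-29, against 7.72, 7.78 and 8.24 in Col (change -1.77 ± 0.30, adjusted p = 0.0167, limma). The plain call of SAL2 was lost without any 1 array but clf-29 replicate 3. AT5G03350, which stands on the list of salicylic acid defence genes used here, averaged 8.01 ± 0.68 in clf-29 and 11.09 ± 0.33 in Col and fell by 3.08 ± 0.37. AT5G52760 averaged 6.88 ± 0.46 in clf-29 and 9.72 ± 0.10 in Col and fell by 2.85 ± 0.30. All 15 had clf-29 means above background, so their signals were reduced and not lost, although 1 clf-29 array of AT1G57630 fell under it. The call of AT1G57630 was lost in the plain fit without any 1 of the 6 arrays. The smallest of the 15 changes was that of AT5G09290, at -1.62 ± 0.33, a plain call lost without any 1 array but clf-29 replicate 1.

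Among sugar transporters, the SWEET exporters and related carriers that load and move sugars between cells, the calls were all rises. For the counts of this class and those below, the shares over all genes were 0.547% higher and 0.397% lower. With the term for replicate 3 these shares were 2.27% and 2.12%. Of 19 measured members, 1 rose in the plain fit and 5 with the term for replicate 3, none fell, and the median change was 0.44, against 0.00 over all genes. Beside SWEET10 these were SAG29 (1.47 ± 0.41), a SWEET family gene of senescing leaves, the sugar-porter genes SFP2 (0.71 ± 0.35) and SFP1 (0.44 ± 0.27), and SWEET2 (0.52 ± 0.36), a vacuolar carrier. SFP1 and SFP2 are neighbours on chromosome 5. SAG29 read 8.58, 8.28 and 7.27 in clf-29, against 6.22, 6.28 and 7.22 in Col, so that replicates 1 and 2 differed widely and replicate 3 hardly at all. SWEET3, which did not pass, had the lowest change of the class (-1.32 ± 0.50).

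UDP-glycosyltransferases, which attach sugars to hormones, phenolics and flavonoids, gave the highest count of rises of any class in the plain fit. The class is also a large one. Of 50 measured members 4 rose and none fell, and with the term for replicate 3 6 rose and 2 fell. The median of the class was 0.11. UGT84A3, which makes sinapoyl glucose and related esters, read 9.35, 9.44 and 9.39 in clf-29, against 7.93, 8.31 and 8.39 in Col (change 1.18 ± 0.19, adjusted p = 0.0118, limma). Its neighbour and relative UGT84A1 read 5.81, 5.49 and 4.43 in clf-29, against 2.04, 1.36 and 2.58 in Col, a rise of at least 1.45-fold (adjusted p = 0.0398, limma). UGT76E11 (1.39 ± 0.25) and UGT71B1 (0.78 ± 0.14) also rose. With the term for replicate 3, UGT73C1 (at least 1.36-fold) and UGT76E12 rose too, and UGT73D1 (-1.44 ± 0.44) and UGT72E1 (-0.59 ± 0.18) fell. UGT76E12 read 6.78, 7.86 and 8.42 in clf-29, against 3.47, 5.64 and 0.89 in Col, where replicates 1 and 3 were under background, so no fold is given. All 4 calls of the plain fit were lost when clf-29 replicate 1, clf-29 replicate 2 or Col replicate 1 was left out. Pairs of this family have similar sequences, and how far a probe set reads its relative was not tested.

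Phenolic and glutathione metabolism also gave rises. On the list of anthocyanin and sinapate genes, 5 of 16 were measured, and the 2 called were again UGT84A1 and UGT84A3. DFR, the dihydroflavonol reductase of anthocyanin synthesis, read 7.14, 7.38 and 7.58 in clf-29 and 5.43, 5.25 and 6.69 in Col, with no overlap, but did not pass (1.58 ± 0.67, adjusted p = 0.368, limma). Among 18 glutathione transferases and glutaredoxins 2 rose, GSTU20 (0.72 ± 0.14) and GSTF4 (0.86 ± 0.18), and with the term for replicate 3 GSTU16 (0.80 ± 0.18) as well. The call of GSTF4 was lost without any 1 of the 6 arrays, and that of GSTU20 without clf-29 replicate 2 or any 1 Col array. GSTU20 was among the brightest genes to rise, with 12.51, 12.64 and 13.05 in clf-29 and 11.93, 12.04 and 12.06 in Col. GR1, a glutathione reductase outside the class, rose by 0.52 ± 0.08 (11.60, 11.59 and 11.58 in clf-29, against 11.04, 11.03 and 11.15 in Col, adjusted p = 0.0122, limma). Its plain call was lost without replicate 1 or 2 of either genotype.

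Cell wall genes rose in part. Of 34 expansins and xyloglucan or pectin enzymes, 1 rose in the plain fit and 3 with the term for replicate 3, all of them expansins, proteins that loosen the wall in growing tissue. EXPB2 read 6.44, 6.47 and 6.51 in clf-29, against 5.17, 5.35 and 5.15 in Col (change 1.25 ± 0.26, adjusted p = 0.0481, limma). This call was lost under quantile normalization and without any 1 of the 6 arrays, with and without the term. EXPB3 (0.72 ± 0.21) and EXPA4 (0.43 ± 0.10) were the others. The median of the class was 0.07, and XTH33 (-0.91 ± 0.33), a xyloglucan-modifying enzyme, did not pass.

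**Figure D2:**
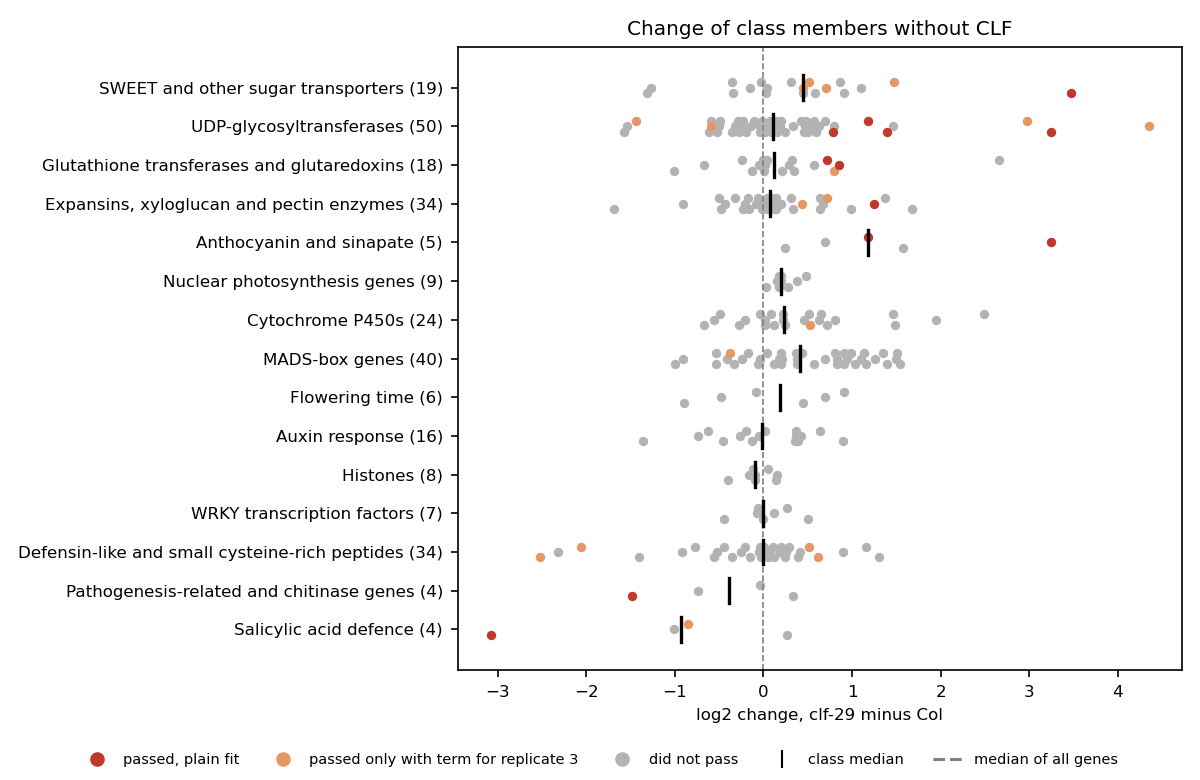
Log2 change of each measured member (clf-29 minus Col, x axis) for 15 gene classes, with the number of members in brackets. Red points passed the plain fit, orange points passed only with a term for replicate 3, grey points passed neither, black bars are class medians and the dashed line is the median of all genes. Sugar transporters, glutathione enzymes and expansins hold coloured points to the right only, and the salicylic acid and chitinase lists hold them to the left only.

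The calls on the salicylic acid defence and chitinase lists, few in number, were all falls. Of 38 genes on the salicylic acid defence list 4 were measured, of which AT5G03350 fell, and with the term for replicate 3 SAG101 fell too (-0.85 ± 0.25), the partner of EDS1 in immune signalling. GRX480 (-1.01 ± 0.49) and WRKY53 (0.27 ± 0.52) did not pass, and the median of the 4 was -0.93. The chitinase gene CHI (AT2G43570) read 8.83, 8.15 and 8.34 in clf-29, against 9.39, 10.02 and 10.35 in Col (change -1.48 ± 0.25, adjusted p = 0.0142, limma), and was the 1 called among 4 pathogenesis-related and chitinase genes. The call was lost without clf-29 replicate 2, Col replicate 2 or Col replicate 3, and CHIL, another member, did not pass (0.34 ± 0.30).

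Other genes linked with pathogen responses fell outside these lists, and were picked out after their values were seen. RING1 (AT5G10380), a ubiquitin ligase of programmed cell death, averaged 8.95 ± 0.09 in clf-29 and 10.39 ± 0.16 in Col and fell by 1.44 ± 0.14 (adjusted p = 0.000436, limma). ECS1 (AT1G31580), a cell wall protein, read 13.18, 12.67 and 13.03 in clf-29, against 14.19, 14.16 and 14.46 in Col (change -1.31 ± 0.22, adjusted p = 0.0146, limma). The plain call of ECS1 was lost without clf-29 replicate 2 or any 1 Col array. The plant defensin genes PDF1.2b (-2.53 ± 0.63) and PDF1.2 (-2.06 ± 0.54), markers of jasmonate and ethylene defence, did not pass in the plain fit. Both fell with the term for replicate 3, and PDF1.2b also with the replicate numbers as a block. How far their probe sets read each other's transcript was not tested. The other measured gene of the jasmonate and ethylene list, the thionin THI2.1, was higher in each pair of arrays and did not pass in either fit (6.15, 6.0 and 4.71 in clf-29, against 4.23, 3.20 and 3.91 in Col). The falls were uneven: PDF1.2b read 7.06, 5.88 and 6.11 in clf-29, against 6.99, 9.26 and 10.38 in Col, so replicate 1 showed no difference. Of 34 genes for defensin-like and other small peptides, these 2 fell with that term and CLE41 (0.51 ± 0.16), a signal that guides vascular stem cells, and RALFL32 (0.62 ± 0.16) rose. None of 7 WRKY genes was called in either fit.

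A few genes of protein folding, picked out after their values were seen, fell as well. ATERDJ3B, an endoplasmic reticulum co-chaperone, averaged 10.80 ± 0.06 in clf-29 and 11.26 ± 0.12 in Col and fell by 0.46 ± 0.09 (adjusted p = 0.0307, limma). Its plain call was lost without replicate 1 or 2 of either genotype. BZIP60 (-0.59 ± 0.25), a transcription factor of the unfolded protein response, passed with the term for replicate 3. Of 6 genes of this response and its chaperones, a class formed after the values were seen, these 2 fell and none rose, with 4 changes negative and 2 positive. No heat shock protein gene was measured by name, and genes known only by locus were not gathered for this role. Fes1B (-1.29 ± 0.25), a nucleotide exchange factor of HSP70, was lower in the plain fit. This call was lost without replicate 1 of either genotype, clf-29 replicate 3 or Col replicate 2.

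Floral and flowering regulators, the classical targets of CLF, were thinly covered. Of 19 genes on the list of floral organ and meristem identity 2 were measured. UFO (AT1G30950), an F-box protein that acts with LEAFY in petal and stamen identity, read 5.41, 4.74 and 5.52 in clf-29, against 0.72, 1.01 and 2.82 in Col, a rise of at least 1.43-fold (adjusted p = 0.0431, limma). All 3 clf-29 arrays lay just above background and all 3 Col arrays below it, and the call was lost without any 1 clf-29 array and without Col replicate 1 or 2. SPL, needed for sporogenous tissue, had a mean of 2.88 in clf-29 and 2.08 in Col, both under background.

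Of 25 flowering time genes 6 were measured, and none was called in either fit. AGL24 (AT4G24540), a MADS-box promoter of flowering, came nearest, with 7.91, 8.52 and 7.95 in clf-29 and 7.37, 7.37 and 7.57 in Col, and no overlap (0.69 ± 0.20, adjusted p = 0.168, limma). AGL19, another MADS-box promoter of flowering that is a known Polycomb target, read 6.02, 4.90 and 5.68 in clf-29 and 5.89, 3.61 and 4.38 in Col (0.91 ± 0.55, adjusted p = 0.572, limma). FD, the bZIP partner of FT, was lower on every clf-29 array (5.55, 4.55 and 4.36) than on the Col arrays (5.68, 5.70 and 5.77), but did not pass (-0.90 ± 0.37, adjusted p = 0.35, limma). SMZ (0.45 ± 0.28), SNZ (-0.47 ± 0.39) and GI (-0.09 ± 0.12) did not pass either.

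MADS-box genes as a family were mostly silent in both genotypes. Of 40 measured, 23 had both means under background and none was called in the plain fit. AGL26 (-0.38 ± 0.11) fell with the term for replicate 3, beside 2.12% of all genes lower in that fit. Their median change was 0.41, with 29 positive and 11 negative, in signals largely below the background percentile. Among 17 genes of the shoot meristem and leaf polarity 3 were measured (ULT1 at -0.63 ± 0.21, CLV3 at -0.21 ± 0.94 and PHV at -0.03 ± 0.16), and none was called. No gene of the Polycomb and trithorax list was measured under its name. chr31 (AT1G05490, also CLSY3), a SNF2-type remodeler that guides RNA-directed DNA methylation, read 4.04, 5.61 and 5.42 in clf-29, against 0.58, 1.54 and 1.27 in Col, a rise of at least 1.24-fold (adjusted p = 0.0243, limma), a call that was lost without any 1 array but clf-29 replicate 1.

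Classes for the bulk of the seedling gave few calls. All 9 nuclear photosynthesis genes were higher in clf-29, by 0.03 to 0.48, and none was called. None of 8 histone genes (median -0.09), 16 auxin response genes (-0.02), 6 cytokinin genes (-0.38) and 3 cell cycle genes (0.14) was called in either fit. Both means were under background for 5 of the auxin and 4 of the cytokinin genes, where changes are imprecise. Of 24 cytochrome P450 genes CYP71B26 (0.52 ± 0.21) rose with the term for replicate 3. AT1G47400, on the iron deficiency list, also rose with that term (9.31, 8.81 and 7.61 in clf-29, against 6.39, 7.54 and 5.73 in Col).

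Leaf and root markers were strong in both genotypes, as whole seedlings should give. The leaf markers RCA (14.63 in clf-29, 14.25 in Col) and LHCB4.1 (14.39 in clf-29, 14.22 in Col) and the root markers PYK10 (14.14 in clf-29, 13.91 in Col), EXPA7 and EXPA18 had changes of 0.38 at most, and none was called. The means of the single measured markers of tapetum, AT5G07230 (2.45 in clf-29, 1.54 in Col), and of seed, M17 (3.32 in clf-29, 3.02 in Col), lay under background in both genotypes. Few markers were measured (3 of 9 for root, 2 of 8 for leaf, 1 of 13 for tapetum and pollen and 1 of 20 for seed maturation), and the part of tissue makeup in the changes above was not tested.

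Families formed after the values were seen gave further calls. The glucosinolate transporter GTR1, which loads these defence compounds into the phloem, rose by 0.87 ± 0.12 (9.44, 9.81 and 9.77 in clf-29, against 8.68, 8.91 and 8.82 in Col, adjusted p = 0.00405, limma), and its paralog GTR2 rose with the term for replicate 3 (0.52 ± 0.14). Of 19 genes of the chloroplast NDH complex and cyclic electron flow, 4 rose with that term by 0.37 to 0.53 (NdhL, NdhS, NdhN and PGRL1B) and none fell. The median of the 19 was 0.05, with 11 changes positive and 8 negative. All 4 jacalin-related lectins were higher in each pair of arrays, with changes of 0.27 to 2.35, and JAL22 (0.56 ± 0.21) and JAL33 (0.59 ± 0.15) passed with the term. Both subunits of the leucine-degrading enzyme methylcrotonyl-CoA carboxylase fell with the term, MCCA by 0.95 ± 0.21 and MCCB by 0.38 ± 0.15. Of 21 beta-glucosidases 2 rose and 2 fell with it, and their median change was 0.07. Of 69 plastid-encoded genes, psbJ and rpl33 fell with the term and none rose, beside 2.12% of all genes lower in that fit. The median of the 69 was -0.06.

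The term for replicate 3 added 460 genes to the calls, 230 in each direction. Of those named here, SWEET2, UGT76E12, PDF1.2, AGL26, GTR2, psbJ and AT3G28510 did not pass with the replicate numbers as a block. Of the 460, 105 overlapped between genotypes, and 457 had the same sign in all 3 pairs of arrays, as did 4993 of the 13356 genes tested. These calls too were made from the same arrays. ORA47, an AP2/ERF activator of jasmonate synthesis, showed the pattern, with 8.63, 9.09 and 6.19 in clf-29 and 6.52, 6.43 and 5.12 in Col. The replicate 3 array was the lowest of both genotypes, and clf-29 was the higher in each pair, by 2.11, 2.66 and 1.07. BGLU45, a beta-glucosidase of lignin precursors, read 7.78, 8.22 and 7.47 in clf-29, against 6.6, 7.0 and 6.14 in Col, with pair differences of 1.18, 1.22 and 1.33. The thionin gene THI2.2 (1.29 ± 0.42) and TBL38 (1.23 ± 0.37) were also higher in every pair. SUFE2, of iron-sulphur cluster assembly, was lower in every pair (-1.31 ± 0.43).

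**Figure D3:**
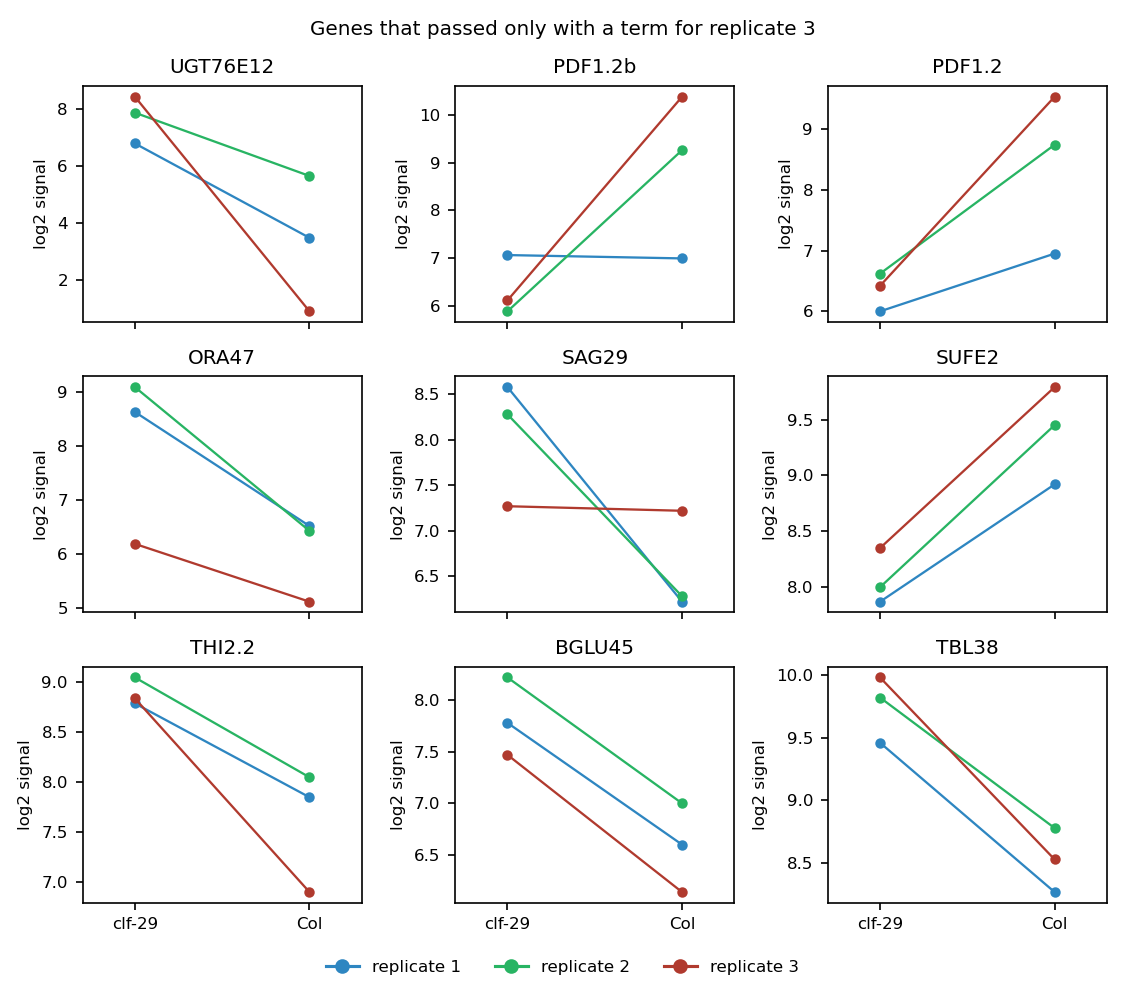
Log2 signal (y axis, scaled to each gene) in clf-29 (left) and Col (right), with a line joining the arrays of 1 replicate number, for the 9 largest changes among genes with a symbol that passed only with the term for replicate 3 and averaged over 7.13, the median level, in at least 1 genotype. The lines of BGLU45 and SUFE2 run nearly parallel, ORA47 drops in both genotypes in replicate 3, and PDF1.2b and SAG29 each have 1 flat line.

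Whether these genes also separate the 2 single mutants was tested directly, with no Col array in the difference. The Col arrays still enter the error of the fit. Between clf-29 and brm-1, 376 genes (2.82%) differed, 235 higher and 141 lower in clf-29 (62.5% higher), and after centring the arrays by their medians 211 were higher and 206 lower (50.6% higher). This comparison shares the clf-29 arrays with the one above. AT1G03710 was higher in clf-29 than in brm-1 (8.22 in clf-29, 3.26 in brm-1, adjusted p = 0.0054, limma), and so were SWEET10 (9.60 in clf-29, 5.56 in brm-1, adjusted p = 0.00244, limma) and ALC (8.65 in clf-29, 6.84 in brm-1, adjusted p = 0.00275, limma). AT2G41480 went the other way, with 7.96 in clf-29 and 8.58 in brm-1 (adjusted p = 0.0202, limma). AT2G22880 averaged 8.31 in clf-29 and 8.41 in brm-1 a difference that did not pass (adjusted p = 0.952, limma).

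The genes that fell differed from brm-1 to unequal degrees. AT3G05730 was lower in clf-29 (9.99) than in brm-1 (12.79, adjusted p = 5.11e-05, limma), as were AT3G16670 (8.55 in clf-29, 11.41 in brm-1, adjusted p = 0.000602, limma), SAL2 (6.15 in clf-29, 8.33 in brm-1, adjusted p = 0.00194, limma), AT1G21520 and AT5G52760. With the term for replicate 3, AT1G35710, AT5G55450, AT1G10340, AT3G47480 and AT4G39830 were lower in clf-29 than in brm-1 as well. For the other 5 large falls the difference did not pass in either fit. AT1G57630 averaged 4.80 in clf-29 and 5.27 in brm-1, AT3G48640 averaged 6.07 in clf-29 and 6.34 in brm-1, and AT3G60420 averaged 8.07 in clf-29 and 8.05 in brm-1, with adjusted p of 0.876, 0.821 and 0.994 (limma). AT5G03350 averaged 8.01 in clf-29 and 9.06 in brm-1 (adjusted p = 0.18, limma). AT5G09290 averaged 5.95 in clf-29 and 6.92 in brm-1 (adjusted p = 0.163, limma). Both differences (-1.05 and -0.97) were larger than that of AT1G10340 (-0.77), which passed with the term. A difference that did not pass is therefore not an equal level. For RING1 the signal was higher in clf-29 (8.95) than in brm-1 (8.24, adjusted p = 0.0183, limma).

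The same loss of CLF was measured a second time in brm-1 plants, on 6 arrays that do not enter the change from Col to clf-29. These arrays do enter the error of the plain fit, so the choice of the called genes was not independent of them. With the 6 arrays of clf-29 and Col only, 81 genes were called, 65 of them also called in the plain fit. In brm-1 clf-29 against brm-1, 21 genes were higher (0.157%) and 8 lower (0.0599%). Of the 73 genes higher in clf-29 than in Col, 71 were higher in brm-1 clf-29 than in brm-1, against 51.2% of all genes, and 17 were called higher. Of the 53 lower genes, 48 were lower there, against 48.3% of all genes, and 2 (AT5G52760 and ECS1) were called lower. The changes were smaller in the brm-1 background. The median of the 73 was 0.58 there, against a median size of 1.01 in clf-29 minus Col. For the 53 it was -0.49, against a median size of 1.29. The genes were called on the changes from Col to clf-29, and the cause of the smaller sizes was not tested. ALC read 8.73, 9.12 and 7.99 in brm-1 clf-29, against 6.99, 7.01 and 6.52 in brm-1 (adjusted p = 0.0188, limma). AT2G20870 read 8.24, 9.58 and 9.10 in brm-1 clf-29, against 6.46, 6.15 and 5.82 in brm-1 (adjusted p = 0.00382, limma). With the term for replicate 3, 34 of the 73 were called higher and 16 of the 53 lower. For SWEET10 the difference was 1.93 ± 0.58 and passed only with the term, and for AT3G05730 it was -0.48 ± 0.22 (adjusted p = 0.511, limma). A test of the difference between the 2 effects of CLF called no gene (lowest adjusted p = 0.152, limma, for AT2G41480). An unadjusted p under 0.05 was reached by 754 genes, or 5.65% of those tested, a share close to the threshold itself.

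**Figure D4:**
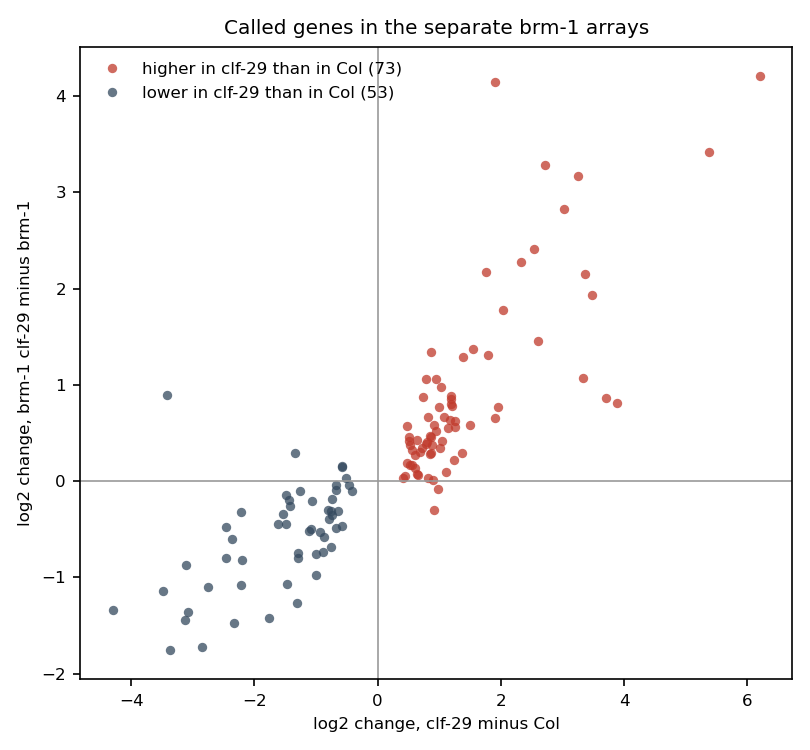
Log2 change in clf-29 minus Col (x axis) and in brm-1 clf-29 minus brm-1 (y axis) for the 126 called genes. The changes share no array, but the arrays of every genotype entered the error used for the calls. Red points are the 73 genes higher and blue points the 53 genes lower in clf-29 than in Col, and 71 and 48 of them have the same sign on the y axis.

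Few genes on the study's own list of H3K27me3 gained in brm-1 were called on loss of CLF alone, and those called were all higher. Of 258 listed genes 97 were measured, of which 2 rose (UGT84A3 and AT5G56240), beside 0.547% of all genes, and none fell. With the term for replicate 3 5 rose, beside 2.27% of all genes, and none fell. AT5G56240 read 9.29, 9.43 and 9.30 in clf-29, against 8.67, 8.46 and 8.52 in Col (change 0.79 ± 0.13, adjusted p = 0.0119, limma). Its plain call was lost without replicate 2 of either genotype. The others with that term were AT1G47400 (2.02 ± 0.75), AT2G03550 and AT5G40020. In the 49 measured genes whose gained mark the study lists as CLF-dependent, 4 rose with the term, and 34 changes were positive, 14 negative and 1 was 0. In the other 48, 1 rose, and 13 changes were positive and 35 negative. Over all 13356 genes 6571 changes were positive and 6725 negative. Both means were under background for 7 of the 49 and 9 of the 48, and the difference between the 2 groups was not tested. None of the 6 measured genes that lose the mark in brm-1 was called.

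Called genes were occasionally neighbours in the genome. Of the 126, 3 pairs were next to each other in RefSeq's gene order: UGT84A1 and UGT84A3, AT1G28570 (1.21 ± 0.15) and AT1G28580 (0.45 ± 0.09), all 4 of which rose, and AT1G49740, which rose by 1.17 ± 0.20, beside AT1G49750, which fell by 0.80 ± 0.11. The plain call of AT1G28580 was lost without any 1 of the 6 arrays. That of AT1G49740 was lost without replicate 1 of either genotype, clf-29 replicate 2 or Col replicate 3. With the term for replicate 3 there were 22 such pairs, 16 with both genes changed the same way. AT3G28500, which rose, stood next to AT3G28510, which fell with the term (2.20, 4.74 and 0.37 in clf-29, against 6.35, 6.74 and 6.83 in Col).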

How the data were processed

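RNA of whole seedlings of 4 genotypes (3 arrays each) was measured on Affymetrix ATH1 arrays. The deposited values are log2 MAS5 signals, 1 a probe set and array, made by the authors with the affy package (version not given in the sources used here) and scaled per array to a common trimmed mean of 500 on the linear scale. All 12 columns were used. GEO's platform annotation gave 1 gene to 13513 of 22810 probe sets, several to 503 and none to 8794. RefSeq TAIR10.1 matched 13436 of them, and the brightest of several probe sets was kept for 146 genes, leaving 13356. Most of these have a locus and no symbol (11799).

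Tests used limma 3.58.1 in R 4.3.3 (1 mean per genotype, empirical Bayes with a trend, two-sided), the same fit with a term for replicate 3, and with the replicate number as a block. The pairing comes from the replicate numbers of the labels. Deviations of same-numbered clf-29 and Col arrays correlated at 0.35, 0.25 and 0.46 across genes, and over all genotype pairs at 0.196 to 0.708. Those of clf-29 replicate 1 and Col replicate 2 correlated at 0.24, and those of clf-29 replicate 2 and Col replicate 1 at 0.19. The pairing of numbers 1 and 2 thus rests on the labels. The fits were tested on simulated data. Alternatives covered scaling, low signals, the variance model, the arrays fitted, probe sets and the 1.5-fold criterion of the methods.

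Genes named singly were the 15 largest rises and 15 largest falls that were called, did not overlap and were above the median level (7.13) in the brighter genotype. Of each class those with the lowest adjusted p were added, and all measured floral, flowering time and meristem genes. Classes were described by counts and medians, with no test. The members and lists were chosen with earlier results of these data known, and classes formed after values were seen are named as such.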

Additional observations from a re-analysis of the deposited data

Results flagged for a closer look

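Probe sets that carry no gene name lay outside every comparison above. When every probe set other than controls was tested together, 198 of 8730 such probe sets differed between clf-29 and Col (adjusted p under 0.05, limma), 112 higher and 86 lower in clf-29. This is a signal in data the comparisons did not use, and no gene can be named for it. Groups of 3 arrays were too small to test single arrays as outlying.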

How the results depend on the processing

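The count for clf-29 against Col (126) stayed within 1.5 times under quantile normalization (135), centring (131), a filter on low values (150), an added 16 before log2 (144) and a robust variance model (143). It was 42 without a trend in the variance, 81 with the 6 arrays of clf-29 and Col only, 735 with replicates 1 and 2 only, 361 over every probe set and 3165 by the 1.5-fold criterion with no test. With the replicate number as a block it was 465, and with the term for replicate 3 it was 586. Leaving out 1 array gave 44 to 173 calls, and with the term 251 to 536. For clf-29 against brm-1 (376) the block gave 900, the term 1003 and leaving out 1 array 185 to 328. For brm-1 clf-29 against brm-1 (29) the block gave 221 and the term 253. The cause was not tested.

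No change of a called gene named above reversed under these alternatives. Of the 30 largest changes, 17 (9 rises and 8 falls) passed in every alternative in which they were tested. The block and the term lost none of the 61 called genes followed, and leaving out clf-29 replicate 2 lost 37. Precision was lowest near background, with a median standard error of 0.98 where both genotypes were under 4.71, and no such gene was called.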
